A study of Mus musculus with 12 samples.

Results

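The livers and lungs of wild-type (WT) newborn mice were compared across all genes, to describe what separates these tissues in a normal pup at birth. The members were the 6 WT libraries of the 12 in the series, 3 from liver and 3 from lung, and they were chosen by the tissue and genotype labels with no measured value. The other 6 libraries came from Man1a2-/- pups and were used only in an alternative fit. WT pups were Man1a2+/+ offspring of Man1a2+/- parents that carried the Man1a2tm1.1Ahe allele, which removes a mannosidase that trims N-glycans. Pups were killed within the hour that followed birth and received no treatment, so both tissues shared genotype and age. The labels gave neither strain background nor sex. Poly-A RNA of whole tissue was sequenced. Each file listed 24421 genes, of which 15635 had enough counts to be tested and 8786 did not. In whole tissue, fewer cells of a type and less RNA per cell cannot be told apart.

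At birth the mouse liver holds 2 working populations. Hepatocytes secrete plasma proteins, and at birth they take over glucose supply and nitrogen disposal from the placenta. Blood-forming cells, which colonised the liver in fetal life, still divide there and later leave for the bone marrow. The lung, which was filled with liquid until birth, is built of an epithelium of surfactant-secreting type 2 cells, flat type 1 cells and airway cells, set in a mesenchyme rich in elastin and in a dense capillary bed. Hepatocyte genes are read under a set of factors that include the HNF1, HNF4, FoxA and C/EBP families, and lung epithelial genes under NKX2-1.

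The promoters of 5 abundant tissue-restricted genes are shown because they carry short sequences known to be bound by these factors. Albumin (Alb), alpha-fetoprotein (Afp) and fibrinogen beta chain (Fgb) were among the 10 most abundant liver genes, surfactant protein B (Sftpb) was among the 10 most abundant lung genes, and surfactant protein A1 (Sftpa1) was chosen after its values were seen. Each window ends at the base before the annotated start, is from RefSeq on GRCm38.p6, and was cut to a length that holds the matches nearest the start. Capitals mark matches to 7 motifs searched on both strands: GTTAATNAT of HNF1, CAAAGTCCA of HNF4, TTGCNNAA of C/EBP, TGTTTAC of FoxA, CTCAAG of NKX2-1, AGATAAG of the blood factor Gata1 and its relatives, and TATAAA. The last is the TATA box, which lies upstream of the start of transcription and helps to place it.
Alb, chr5:90460770-90460869, plus strand: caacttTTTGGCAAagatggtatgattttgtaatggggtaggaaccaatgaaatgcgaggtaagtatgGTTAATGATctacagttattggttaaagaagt
Afp, chr5:90490604-90490713, plus strand: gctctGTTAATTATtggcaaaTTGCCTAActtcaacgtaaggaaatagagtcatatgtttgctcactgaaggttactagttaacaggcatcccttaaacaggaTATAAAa
Fgb, chr3:83049864-83049963, minus strand: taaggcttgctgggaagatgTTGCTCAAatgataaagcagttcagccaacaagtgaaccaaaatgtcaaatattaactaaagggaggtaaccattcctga
Sftpb, chr6:72304500-72304609, plus strand: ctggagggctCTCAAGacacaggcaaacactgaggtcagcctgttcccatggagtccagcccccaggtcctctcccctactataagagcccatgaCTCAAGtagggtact
Sftpa1, chr14:41131618-41131787, plus strand: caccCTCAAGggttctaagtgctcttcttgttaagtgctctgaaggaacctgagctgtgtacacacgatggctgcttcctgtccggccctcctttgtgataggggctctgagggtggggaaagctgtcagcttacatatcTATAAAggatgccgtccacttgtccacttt

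In Alb the HNF1 match lay 32 to 24 bases upstream of the start and a C/EBP match on the other strand lay 94 to 87 bases upstream. Afp, its neighbour on chromosome 5, held an HNF1 match at 105 to 97 bases and a C/EBP match at 89 to 82 bases upstream. Fgb held a C/EBP match at 80 to 73 bases upstream. Sftpb held NKX2-1 letters at 100 to 95 and at 15 to 10 bases upstream, and Sftpa1 held them at 166 to 161 bases upstream. TATAAA lay 7 to 2 bases upstream of the annotated start in Afp and 30 to 25 bases upstream in Sftpa1. None of these matches overlapped another. A match is a run of letters and not a measured binding site.

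Across the promoters of all genes, windows from 250 bases upstream to 50 bases downstream of the start were searched. RefSeq promoters were matched for 12273 of 15612 named genes tested, for 838 of 1108 named genes at least 8-fold higher in liver and for 1150 of 1579 at least 8-fold higher in lung. Since fewer than 80% of each set were matched, the shares below are void as a property of the whole sets and describe the matched genes. The HNF1 motif was present in 4.18% of the matched liver promoters (95% Wilson interval 3.02 to 5.75%), in 0.521% of the lung promoters (0.239 to 1.13%) and in 0.619% of all promoters. The HNF4 motif was present in 2.51% of liver, 0.174% of lung and 0.489% of all promoters. For C/EBP the shares were 16% in liver, 8.78% in lung and 8.74% of all promoters, and for the motif of Gata1 and its relatives 5.61%, 2.00% and 2.06%. These 4 motifs were thus more frequent among liver promoters than among all promoters, while their shares in lung promoters lay near or below the share of all promoters. FoxA letters were found in 3.94% of liver and 3.48% of lung promoters against 2.66% of all. The short NKX2-1 motif did not separate the sets, with 13.7% of liver, 13.9% of lung and 14.3% of all promoters. The TATAAA letters were more frequent in both sets (16.2% in liver, 12.6% in lung and 8.01% of all), whose median GC content was 53% and 58.3% against 60.3% of all promoters. The part of base composition in the motif shares was not tested. The intervals treat promoters as independent, which those of neighbouring gene copies may not be, so they can be too narrow.

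The libraries held between 27415676 and 41339184 counts, and levels are given as CPM, counts per 1000000 counts of a library, scaled by TMM, a factor per library that aligns the bulk of genes. On this scale 3 counts, the floor used here, stood for 0.0561 to 0.129 CPM. Libraries of 1 tissue correlated at 0.983 to 0.992 (log2 CPM across genes, which are not independent replicates), and libraries of different tissues at 0.621 to 0.674. No pair of libraries within a tissue agreed within sampling noise. Xist, which silences an X chromosome in females, was read at 736, 1.2 and 0.217 CPM in liver and 599, 0.0824 and 0.390 CPM in lung, and the Y-linked Ddx3y at 0.0745, 129 and 103 CPM in liver and 0.0187, 90 and 100.4 CPM in lung. In both tissues number 1 was therefore high for Xist and numbers 2 and 3 were high for Ddx3y.

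The labelled tissues were checked against their defining markers. All 10 hepatocyte markers were higher in liver, with summed levels of 185230.1 to 242542 CPM in the livers and 33.8 to 540.2 CPM in the lungs. All 10 type 2 cell markers were higher in lung. Each tissue also held a small amount of the other tissue's most restricted transcripts, and this amount differed between libraries. For 130 liver genes with at least 100 CPM and a difference of at least 512-fold, the median level in WT lung 1 was 0.239% of the liver level, against 0.0192% and 0.0304% in WT lungs 2 and 3. For 23 lung genes chosen in the same way, the median level in WT liver 2 was 0.313% of the lung level, against 0.0129% and 0.0124% in WT livers 1 and 3. WT lung 1 and WT liver 2 thus stood above the other libraries of their tissue, and the cause was not tested.

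**Figure D1:**
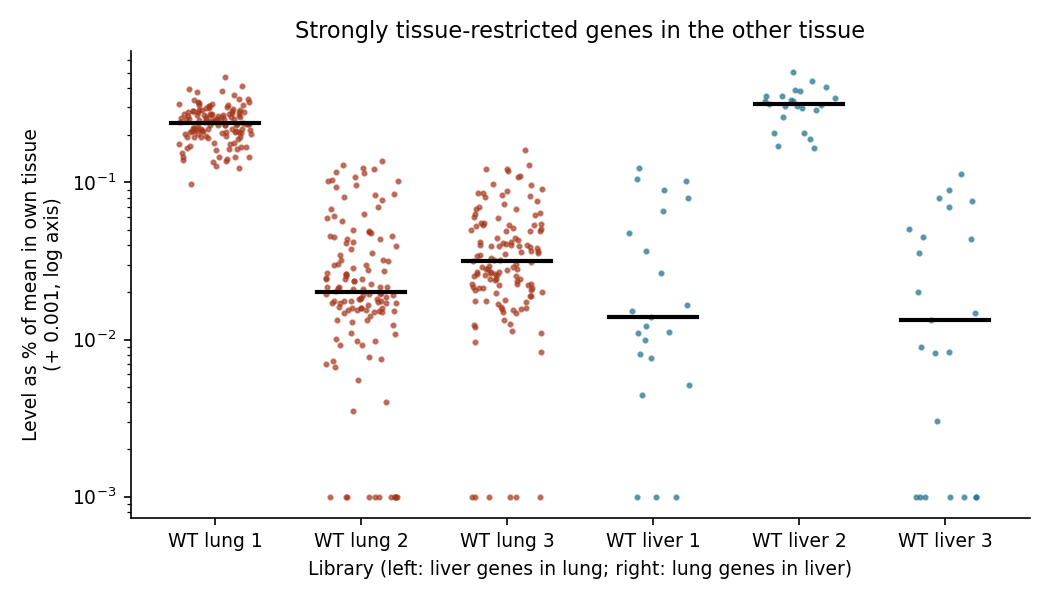
Level of each strongly tissue-restricted gene in the other tissue, as a percentage of its mean in its own tissue plus 0.001 (log axis), for 130 liver genes in the 3 WT lungs (left) and 23 lung genes in the 3 WT livers (right). Points are genes and bars are medians; the medians of WT lung 1 (0.239%) and WT liver 2 (0.313%) stand above those of the other libraries of their tissue.

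Without these 2 libraries the size of many of the largest differences changed. Among genes more than 512-fold different, leaving out both libraries multiplied the fold by a median of 3.11 for 204 liver genes and of 1.25 for 86 lung genes. All of them were still called with the same sign. This does not test their direction, since the libraries left out were picked for their reads of the other tissue. Leaving them out tends to raise such folds. Genes that differed by 8-fold to 64-fold hardly moved (medians of 1.0 in liver and 1.03 in lung). Where the fold of a single gene moved by more than 1.5 times, the value without these 2 libraries is given in parentheses, unless 3 or fewer counts were then left in the other tissue. No fold is given where 1 to 3 counts were read in the other tissue over its 3 libraries, and where there were none the fold is a lower bound against the mean floor of that tissue's libraries.

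The tissues differed at most of the genes tested. A gene was called when the quasi-likelihood test of edgeR gave a Benjamini-Hochberg adjusted p below 0.05 and the difference was at least 1.2-fold. By this rule 12039 of 15635 genes were called, which is a background of 77.0%, with 5812 genes (37.2%) higher in liver and 6227 (39.8%) higher in lung. Every count of list or family members below is to be read beside these shares. A gene can pass the filter on low counts through the libraries of 1 tissue alone. Members near 0 in the other tissue are then tested only because they are high in that tissue. A difference of at least 8-fold was called for 1109 genes higher in liver (7.09%) and for 1580 genes higher in lung (10.1%). The values of the liver and lung libraries did not overlap for 12711 genes, or 81.3% of those tested. Among the genes past 8-fold, 37 of the liver had no count in any lung and 131 of the lung had no count in any liver.

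The balance between the tissues rested on the scaling. Without scaling factors 2997 genes were called higher in liver and 10133 higher in lung, and the median log2 difference moved towards lung by 0.787. The direction then flipped for 3552 genes, of which 1804 were called, and none of these differed by more than 0.83 on the log2 scale. Genes that are given a direction or compared between tissues below and whose direction flips are marked.

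**Figure D2:**
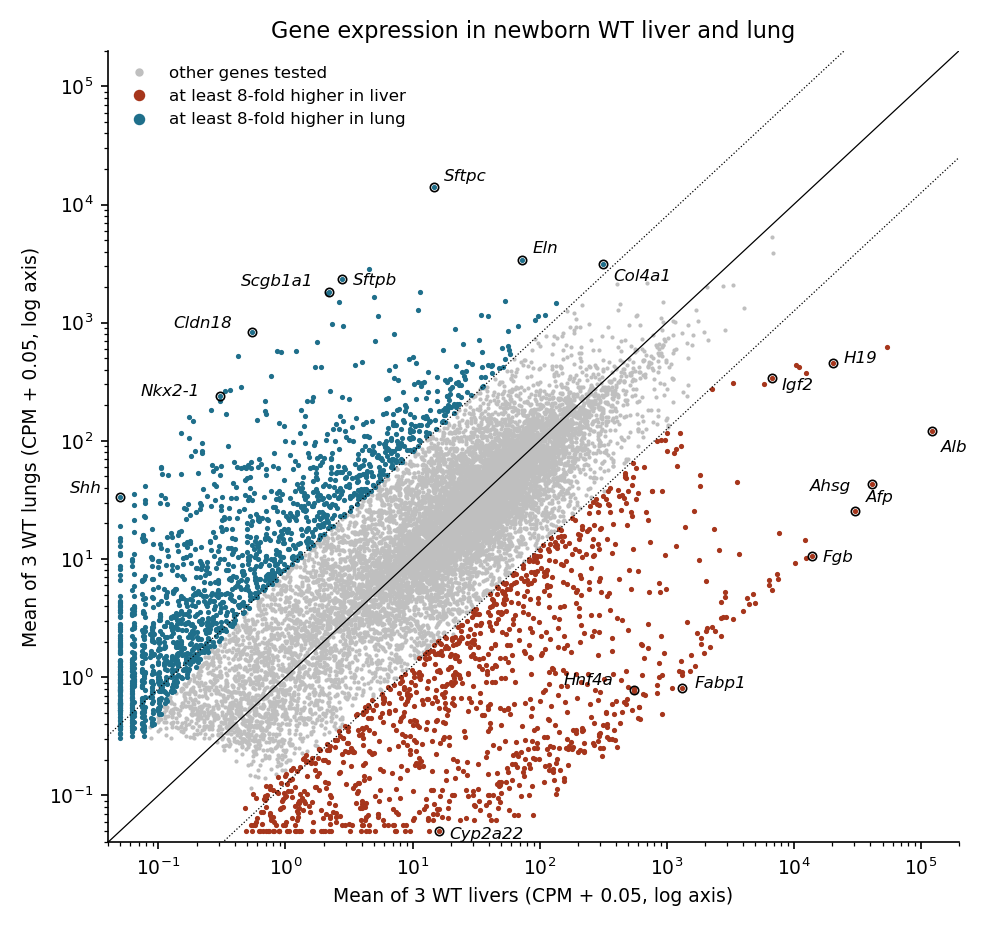
Mean level of each gene tested in the 3 WT livers (horizontal) and the 3 WT lungs (vertical), both as CPM + 0.05 on log axes, with equality as a solid line and 8-fold differences dotted. Red points are the 1109 genes at least 8-fold higher in liver and blue points the 1580 genes at least 8-fold higher in lung; named genes of the text are circled, with Alb at the far right and Sftpc at the top.

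Liver reads were concentrated on few genes and lung reads were spread widely. The 10 most abundant genes took 25.2 ± 1.61% of liver reads and 5.43 ± 0.291% of lung reads (mean ± SD, n = 3). A total of 194 ± 30.6 genes supplied 50% of the liver reads, against 1130 ± 23.4 genes in lung. Alb, the main protein of plasma, alone took 9.30 ± 1.30% of liver reads. It was followed by Trf, transferrin, at 4.14%, by Ahsg, fetuin A, at 3.15% and by Afp, the fetal counterpart of albumin, at 2.31%. The others of the 10 were the imprinted RNA H19, Fgb, complement C3, the fibrinogen alpha chain Fga, apolipoprotein Apoa1 and the selenium carrier Sepp1, which took between 1.54% and 0.828% each.

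In lung, Sftpc, surfactant protein C, took 1.83 ± 0.229% of reads and led a more varied list. It was followed by the elongation factor Eef1a1 (0.695%), the ribosomal RNA precursor Rn45s (0.510%), elastin (Eln, 0.449%), basement membrane collagen Col4a1 (0.411%), the phosphate transporter Slc34a2 of type 2 cells (0.375%) and Sftpb (0.308%). Tmsb4x, an actin-binding peptide, Sparc, a matrix glycoprotein, and Lars2, a mitochondrial tRNA synthetase, completed the 10. Rn45s and Lars2 carry sequence related to ribosomal RNA, and their counts can hold rRNA left after poly-A selection. Of these 10 lung genes, Eef1a1 was not called (6378, 6932 and 6852 CPM in liver and 5873, 5109.9 and 4895 CPM in lung), and Rn45s and Lars2 were higher in liver by 1.76-fold and 1.61-fold. The direction of Eef1a1 and Lars2 flips without scaling factors. Eef1a1 was called without WT lung 1 (adjusted p = 0.0149 by edgeR). The call of Rn45s was lost without WT liver 2, WT liver 3 or WT lung 2 (0.0546, 0.117 and 0.128) and that of Lars2 without WT lung 2 (0.0524), and both were lost with the replicate number as a block (0.0604 and 0.0549).

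Genes at least 8-fold higher in liver supplied 48.1 ± 1.71% of all liver reads and 1.11 ± 0.0966% of lung reads. Genes at least 8-fold higher in lung supplied 15.9 ± 0.232% of lung reads and 0.370 ± 0.00268% of liver reads. Thus the larger number of lung genes took a smaller part of their tissue's reads.

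Identity transcription factors divided sharply by tissue. Of 19 listed factors of liver identity, 13 were higher in liver, 4 were higher in lung and 2 were not called, where 37.2% and 39.8% of all genes were called in these directions. The nuclear receptor Hnf4a, a central regulator of hepatocyte genes, was read at 603, 472 and 582 CPM in liver and 1.66, 0.247 and 0.298 CPM in lung. The libraries did not overlap and the difference was 698-fold (2132-fold without WT liver 2 and WT lung 1), or 9.45 ± 0.61 on the log2 scale (SE), with an adjusted p of 5.82e-07 by edgeR. Onecut1 and Onecut2, which act early in liver and bile duct development, were at 8.65 ± 1.84 and 69.4 ± 6.29 CPM in liver (mean ± SD, n = 3), and Onecut1 had no count in lung (at least 125-fold higher in liver). The nuclear receptors for bile acids (Nr1h4) and for drugs and other foreign compounds (Nr1i2 and Nr1i3), and the fasting-induced factor Creb3l3, stood at 48.2 to 290.2 CPM in liver and at 0.0810 to 0.587 CPM in lung. Ppara, which turns on fatty acid oxidation, was 45.2-fold higher, and Nr5a2 and Prox1 were 15.1-fold and 14.5-fold higher. Rxra, the shared partner of Ppara, Nr1h4, Nr1i2 and Nr1i3, was 3.67-fold higher.

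The FoxA family, which opens chromatin for both organs, split between them. Foxa3 was read at 46.7, 40.7 and 41.3 CPM in liver and 0.411, 0.0549 and 0.184 CPM in lung, a difference of 179-fold (343-fold without WT liver 2 and WT lung 1). Foxa2 ran the other way, with 16.1, 11.8 and 16.1 CPM in liver and 54.9, 50.4 and 61 CPM in lung, and was 3.77-fold higher in lung, as was Foxa1 (4.04-fold). Per transcript length, Foxa3 made up 71.3% of FoxA transcripts in liver and 0.329% in lung, and Foxa2 made up 20.9% and 71.0%. Tbx3, a T-box factor of early liver growth, was 8.1-fold higher in lung and Cebpb, a factor of the acute phase response, 1.93-fold higher. Cebpa, a factor of both hepatocytes and maturing lung epithelium, was at 189, 125 and 174 CPM in liver and 170.1, 135 and 152 CPM in lung and was not called (adjusted p = 0.596 by edgeR). Its sign flips without scaling factors, and it was called higher in liver without WT liver 2 and WT lung 1 (1.27-fold).

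Of 31 tested factors of lung identity, 29 were higher in lung, 0 were higher in liver and 2, Foxp4 and Id2, were not called, of which Foxp4 flips in direction without scaling factors. Nkx2-1, which directs lung and thyroid epithelium, was read at 233, 229.7 and 254 CPM in lung and 0.0372, 0.728 and 0 CPM in liver. It was 1009-fold higher in lung, or 646-fold without WT liver 3 (9.98 ± 0.51 on the log2 scale, adjusted p = 1.26e-07 by edgeR), and all but 1 of its few liver counts lay in WT liver 2. The mesenchymal T-box factors Tbx4 and Tbx5, which pattern the lung bud, stood at 147 ± 1.73 and 60.4 ± 3.42 CPM in lung against 0.137 and 0.0553 CPM in liver. The Iroquois factors Irx1, Irx2, Irx3 and Irx5 reached 218, 78.8, 58.5 and 31.7 CPM in lung, with liver means of 0.257, 0.170, 0.0549 and 0.0286 CPM. Sox2, a factor of airway progenitors, had no count in liver and 3.12, 4.67 and 4.98 CPM in the lungs (at least 36.6-fold higher).

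Factors of the lung mesenchyme and epithelium covered a wide range of differences. Foxf1, the hedgehog-responsive factor of lung capillaries and mesenchyme, was read at 299.5, 315 and 251 CPM in lung and 12.8, 10.8 and 11.1 CPM in liver and was 24.9-fold higher in lung, while Foxf2 was 538-fold higher (352-fold without WT liver 3). Tcf21, of mesenchymal cells, Tbx2 and Meox2 were 21.4-fold, 26.4-fold and 82.8-fold higher. Among epithelial factors, Elf5 of distal epithelium was 485-fold, Grhl2, a regulator of cell junctions, 86.7-fold, Foxj1, the master factor of motile cilia, 108-fold, Hopx of type 1 cells 29.2-fold and Etv5, a target of FGF signals in type 2 cells, 18.1-fold higher. Osr1, Ehf, Elf3 and Sox11 were 7.62-fold to 15.2-fold higher. The remaining called factors, which were Foxp2, Foxp1, Gata6, Mycn, Sox9, Nfib and Etv4, differed by 2.34-fold to 4.14-fold. Sox9, a marker of distal tip progenitors, stood at only 7.26 ± 1.28 CPM in lung. Trp63, the factor of airway basal cells, was below the limit for testing in both tissues.

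Factors of blood formation lay mainly in liver, where 13 of 15 were higher. Gata1, which drives red cell and platelet precursors, was read at 59.1, 53.9 and 61.9 CPM in liver and 1.63, 2.03 and 1.79 CPM in lung, without overlap and 32.3-fold apart. Its partner in red cells, Klf1, was 138-fold higher in liver, and Gfi1b was 96.4-fold higher. Cebpe, Gfi1, Nfe2 and Bcl11a were 10.2-fold to 18.6-fold higher, and Tal1, Ikzf1, Zfpm1, Myb, Lmo2 and Spi1 were 1.78-fold to 7.13-fold higher in liver. The exceptions were Runx1, 1.81-fold higher in lung, and Gata2, which maintains blood stem cells and is also a factor of endothelium and mast cells. Gata2 was read at 4.92, 3.64 and 4.92 CPM in liver and 89.3, 79.4 and 83.5 CPM in lung and was 18.6-fold higher in lung. Per length, Gata1 made up 71.2% of the GATA transcripts of liver and Gata2 made up 50.8% of those of lung.

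**Figure D3:**
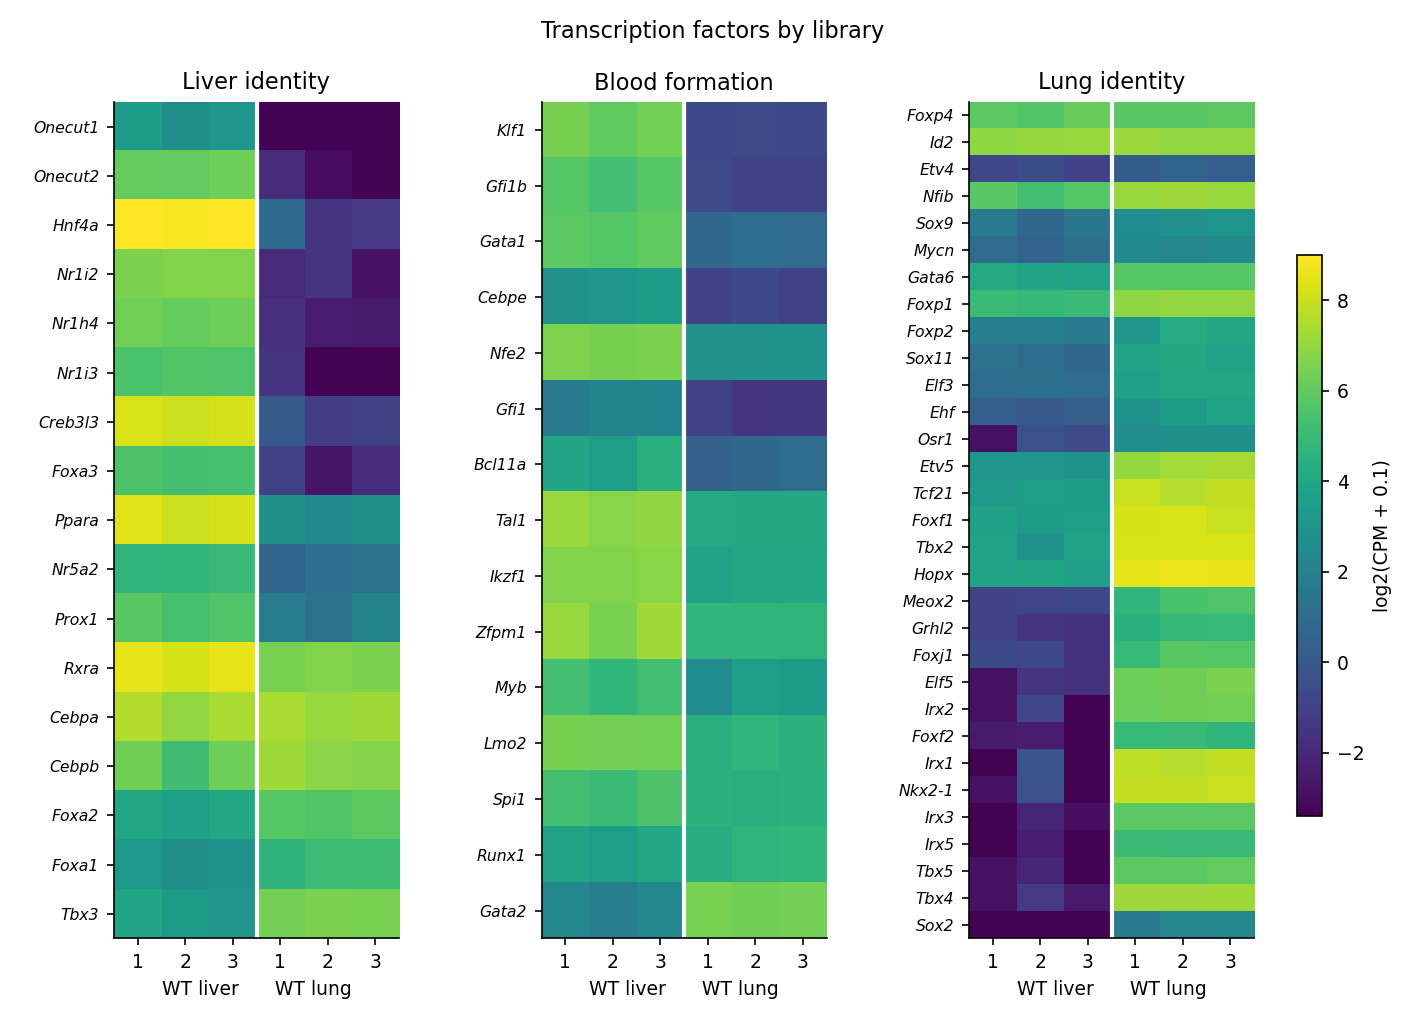
Level of the transcription factors named in the text in each of the 6 WT libraries, as log2(CPM + 0.1) by colour, for factors of liver identity, of blood formation and of lung identity, sorted by the log2 difference. Columns 1 to 3 left of the white line are WT livers and columns 1 to 3 right of it WT lungs; Foxa1, Foxa2, Tbx3 and Gata2 stand at the lung end of lists that are otherwise mostly higher in liver.

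Hox genes, which record position along the body axis, were mostly higher in lung among those tested. Of 39 listed Hox genes 16 were tested, and 15 of these were higher in lung, where 39.8% of all genes were. Over all 39 the summed levels were 12.3 to 15 CPM in the livers and 154 to 175 CPM in the lungs. Members near 0 in liver were tested only through their lung counts, so the count of 15 was partly set by the filter. The Hox gene with the highest level was Hoxa5, which is required for lung formation, at 74.9, 67.2 and 57.6 CPM in lung and 2.12, 1.76 and 1.77 CPM in liver, a difference of 35.2-fold. Hoxb3, Hoxb5, Hoxb2, Hoxa3, Hoxb4 and Hoxa2 followed at 9.72 to 16 CPM in lung, 5.86-fold to 20.2-fold above liver. Hoxa4, Hoxa7, Hoxb6 and Hoxa6 were lower in level but also higher in lung, and so were Hoxb8 and Hoxd8. The call of Hoxb8 was lost without WT liver 3 or WT lung 2 (adjusted p = 0.0593 and 0.0507 by edgeR). Hoxd9 had no count in liver and was at least 6.2-fold higher in lung. Hoxb7 was not called, at 0.384 ± 0.0869 CPM in liver and 0.519 ± 0.116 CPM in lung. The genes tested thus came mostly from the a and b clusters, and none of the listed Hoxc genes had enough counts to be tested.

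**Figure D4:**
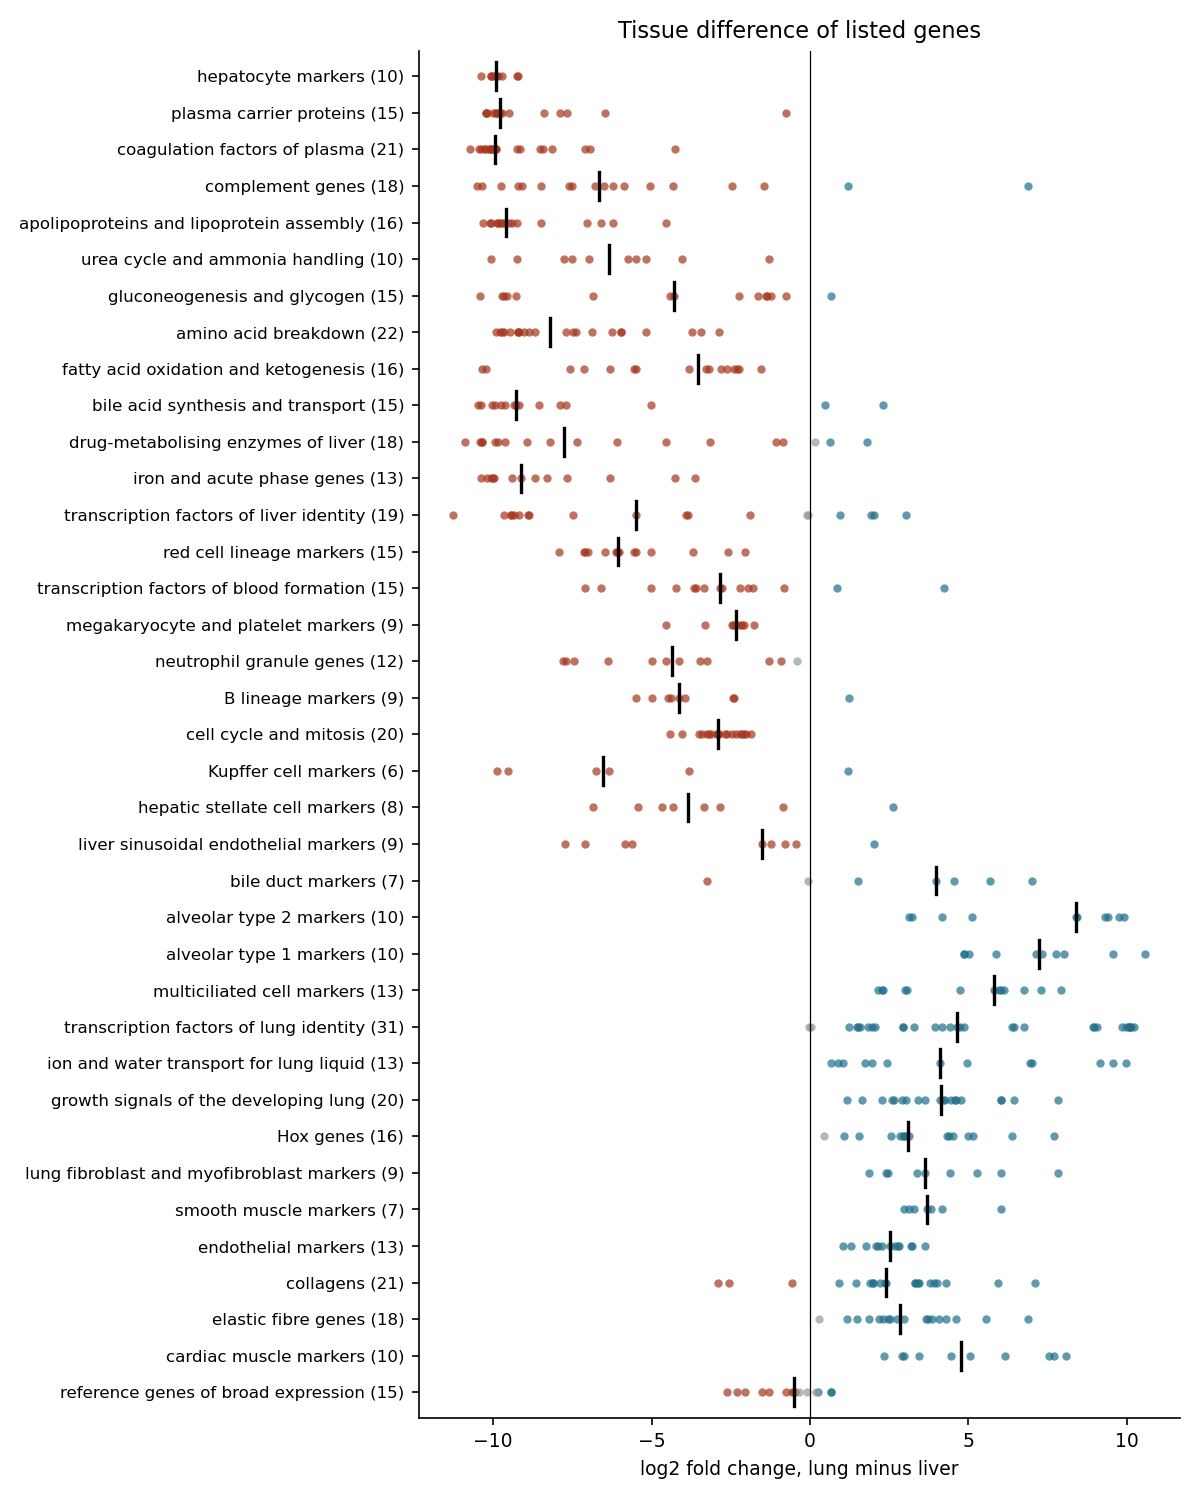
Log2 difference between lung and liver (lung minus liver) of each tested member of 37 gene lists, with the number tested in parentheses and the median of each list as a bar. Points are genes, red where called higher in liver, blue where called higher in lung and grey where not called; the medians of the lists of hepatocyte function and blood formation lie left of 0, and those of lung cells, matrix and growth signals lie right of it.

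Plasma proteins gave the deepest separation. All 15 carrier proteins, all 21 coagulation factors and all 16 genes of lipoproteins were higher in liver, against 37.2% of all genes. Their median differences were 9.80, 9.93 and 9.59 on the log2 scale, where the median of all genes tested lay 0.04 towards lung. Alb was read at 116648, 147929.8 and 103924 CPM in liver and 313, 18.3 and 28.4 CPM in lung, a difference of 1023-fold (4731-fold without WT liver 2 and WT lung 1) with an adjusted p of 9.60e-05 by edgeR. The groups did not overlap, and WT lung 1 stood above the other lungs. Trf, the iron carrier, was read at 55114, 54793 and 53572 CPM in liver and 716, 531 and 609 CPM in lung and differed by 88.1-fold only, with all 3 lungs above 500 CPM. The exception in size was Orm1, an acute phase carrier, at 7.23 ± 2.47 CPM in liver and 4.27 ± 1.05 CPM in lung (1.7-fold, a direction that flips without scaling factors and a call lost without WT liver 3, WT lung 1 or WT lung 2, with adjusted p of 0.0603 to 0.113 by edgeR). The corticosteroid carrier Serpina6 stood at 5.31 ± 1.78 CPM in liver and at 0.0201 ± 0.0189 CPM in lung. The other carriers, among them the retinol carrier Rbp4, the thyroid hormone carriers Ttr and Serpina7, the vitamin D carrier Gc and the haem carrier Hpx, together with Ambp, Apoh, Fetub and Afm, stood at 122 to 4964 CPM in liver and at 0.196 to 11.1 CPM in lung.

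Clotting proteins, protease inhibitors and complement followed the same direction. The fibrinogen chains Fgb, Fga and Fgg stood at 13997 ± 1097, 12419 ± 1264 and 10235 ± 698 CPM in liver. Prothrombin (F2) was 977-fold (3802-fold without WT liver 2 and WT lung 1) higher in liver, antithrombin (Serpinc1) 1235-fold (5689.7-fold without WT liver 2 and WT lung 1), plasminogen (Plg) 1067-fold (4233-fold without WT liver 2 and WT lung 1) and the kininogen Kng1 958-fold (4883-fold without WT liver 2 and WT lung 1). F13b, the subunit of factor XIII that circulates as a carrier, had the largest difference of the list, with 376, 526 and 316 CPM in liver and 0.542, 0.0275 and 0.0459 CPM in lung. F7, the factor that starts clotting with tissue factor, had the smallest, at 19.1-fold. Of 18 tested complement genes 16 were higher in liver. C3, on which all complement pathways meet, was read at 11902, 12848 and 12777 CPM in liver and 505, 289 and 331 CPM in lung and differed by 33.4-fold. The terminal components C8a and C8b and the lectin Mbl2 were near absent from lung, while Hc, the gene of complement C5, was at 233 ± 16.9 CPM in lung and differed by 2.76-fold. The 2 genes against the direction were C6 (2.29-fold higher in lung) and C7 (118-fold higher in lung, at 15.3, 14 and 12.8 CPM in lung and 0.0372, 0.171 and 0.145 CPM in liver), which bind next to each other in the membrane attack complex.

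Apolipoproteins ranged from strict to partial restriction. Apoa1, the main protein of high-density lipoprotein, was read at 13052, 12093 and 11561 CPM in liver and 38.7, 1.81 and 3.19 CPM in lung and Apob, of low-density lipoprotein, at 2644, 3408 and 2618 CPM in liver and 9.42, 2.69 and 1.97 CPM in lung. Apof, Apoa5, Apoa4 and Apom stood at 145 to 1315 CPM in liver and at 0.115 to 1.08 CPM in lung. Apoe, which macrophages also make, was read at 10306, 10424 and 10489 CPM in liver and 506, 394 and 426 CPM in lung and differed by 23.5-fold, the smallest difference of the list. All 13 tested genes of iron handling and the acute phase were higher in liver (median 9.11). The iron hormone hepcidin (Hamp) was at 338 ± 127 CPM in liver and 0.260 ± 0.262 CPM in lung. Haptoglobin (Hp) and the endotoxin-binding protein Lbp were also present in lung, at 303 ± 43.4 and 42.5 ± 1.68 CPM, and differed by 19.3-fold and 12.5-fold. Saa1 and Saa2, the main inducible acute phase proteins, were below the limit for testing in both tissues.

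Glucose and nitrogen metabolism marked the liver at its most specific steps. Of 15 genes of gluconeogenesis and glycogen 14 were higher in liver (median 4.30). G6pc, which releases free glucose, was read at 1486, 1350.3 and 1773 CPM in liver and 2.62, 0.220 and 0.390 CPM in lung, without overlap and 1362-fold (5181-fold without WT liver 2 and WT lung 1) apart. Pck1 and Fbp1, of the steps before it, stood at 2094 ± 328 and 2057 ± 126 CPM in liver and at 2.54 ± 3.38 and 2.42 ± 2.55 CPM in lung. The shared steps of glycogen metabolism differed less. Gbe1 and Ugp2 were 2.58-fold and 1.68-fold higher in liver, and the direction of Ugp2 flips without scaling factors. Ppp1r3c, a glycogen-targeting subunit of a phosphatase, was the exception at 1.6-fold higher in lung.

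All 10 genes of the urea cycle and ammonia handling were higher in liver (median 6.35). Cps1, which fixes ammonia at entry to the cycle, was read at 3853, 3649 and 2568 CPM in liver and 8.28, 0.385 and 0.551 CPM in lung, a difference of 1073-fold (6741-fold without WT liver 2 and WT lung 1). Otc, Arg1 and Nags were 603-fold (1257-fold without WT liver 2 and WT lung 1), 217-fold and 125-fold higher. Glul, glutamine synthetase, was read at 1349.8, 938 and 828 CPM in liver and 457, 360.1 and 444 CPM in lung and differed by 2.47-fold. Ass1, a step of the same cycle, was listed at only 1.22 ± 0.721 CPM in liver and its level is not read further, since near-identical copies of the gene can take its reads. All 22 genes of amino acid breakdown were higher in liver (median 8.20). Mat1a, which makes S-adenosylmethionine, was the most abundant at 7707 ± 613 CPM. Tat, the tyrosine aminotransferase that rises at birth, stood at 675, 555 and 692 CPM in liver and 2.43, 0.302 and 0.275 CPM in lung, while Tdo2, which opens tryptophan breakdown, was at 17.6 ± 4.18 CPM and 7.38-fold higher in liver, the smallest difference of the list.

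Fatty acid oxidation was higher in liver but shared. All 16 genes were higher in liver, with a median of 3.55, well below that of secreted proteins. Cpt1a, which admits fatty acids to mitochondria, was read at 949.7, 767 and 858 CPM in liver and 157, 156 and 173 CPM in lung and was 5.3-fold higher. The enzymes of the mitochondrial cycle, Acadm, Acadvl, Acadl, Hadha and Hadhb, were 2.92-fold to 9.13-fold higher. The peroxisome and microsome enzymes stood further apart, with Ehhadh at 139.6-fold and Cyp4a14 at 1195-fold (6814-fold without WT liver 2 and WT lung 1).

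Most genes of bile acid and drug metabolism were higher in liver. Of 15 tested bile acid genes 13 were higher in liver (median 9.26). Cyp7a1, the rate-limiting enzyme of bile acid synthesis, was read at 201, 146 and 152 CPM in liver and 0.393, 0 and 0 CPM in lung, with no count in WT lungs 2 and 3. The uptake carrier Slc10a1 and the export pump Abcb11 stood at 598 ± 105 and 224 ± 46 CPM in liver, and Slco1b2, another uptake carrier, at 389.9 ± 132 CPM. Fgfr4, the receptor of the intestinal hormone that restrains this pathway, ran the other way at 24.9, 28 and 29.6 CPM in liver and 38.3, 40.4 and 36.1 CPM in lung (1.39-fold higher in lung), whereas its co-receptor Klb was 643-fold higher in liver. Cyp7b1, of the alternative pathway, was also higher in lung (4.94-fold). Slco1a1, an uptake carrier of adult liver, had too few counts to be tested. Of 18 drug-metabolising genes 15 were higher in liver. Cyp2e1, Cyp2d26 and Cyp3a11 were the most abundant, at 1435 ± 189, 1093 ± 125 and 918 ± 346 CPM. Cyp2c29, a major enzyme of the adult, was at only 0.577 ± 0.182 CPM in liver and had no count in lung (at least 8.35-fold). Cyp2b10 and Aox1 were higher in lung (3.45-fold and 1.56-fold), and Fmo1 was not called at 48.9 ± 6.6 and 55.2 ± 12.2 CPM. The call of Aox1 was lost without WT liver 1, WT liver 3 or WT lung 3 (adjusted p = 0.0520 to 0.0633 by edgeR).

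The largest differences towards liver were found in enzymes and secreted proteins. Cyp2a22 and Sult2a1 had no count in lung and were at least 233-fold and at least 195-fold higher in liver, at 16.1 ± 3.47 and 13.5 ± 3.97 CPM. Hsd3b1, Cyp2c37, Ugt2b5, Inhbc and Cyp2b9 had 2 or 3 counts in WT lung 1 and none in WT lungs 2 and 3, and stood at 30.5 to 88.5 CPM in liver. Ugt2b35 was at 57.4 ± 25.4 CPM in liver with its few lung counts in WT lung 1 as well. Inhbe, an activin subunit made by hepatocytes, was at 120.3, 135 and 149.5 CPM in liver and 0.131, 0.0275 and 0 CPM in lung, and Fabp1, the fatty acid carrier of the hepatocyte, at 909, 1956 and 1113 CPM in liver and 1.81, 0.220 and 0.252 CPM in lung. Cyp3a11, Cyp3a44, F13b and Cfhr2 were also among the 15. Several of these genes lie in clusters of near-identical copies, so the share of each copy is uncertain.

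Imprinted and fetal genes were found on both sides. Of 14 imprinted growth genes 5 were higher in liver and 9 in lung, where 37.2% and 39.8% of all genes were. H19 was read at 20696, 22593 and 17450.5 CPM in liver and 509, 398 and 459 CPM in lung (44.5-fold), and Igf2, the growth factor of the same locus, at 7257, 6449 and 6382 CPM in liver and 408, 300.5 and 320.0 CPM in lung (19.5-fold). Dcn, Grb10 and Peg3 were also higher in liver, by 9.14-fold, 2.27-fold and 1.8-fold. Dlk1 was read at 198, 162 and 196 CPM in liver and 899, 789 and 788 CPM in lung and was 4.45-fold higher in lung, as were Ndn (4.46-fold) and, by 1.51-fold to 1.98-fold, Meg3, Gnas, Igf2r, Cdkn1c, Plagl1, Mest and Sgce. The call of Plagl1 was lost without WT liver 1, WT liver 3, WT lung 2 or WT lung 3 (adjusted p = 0.0756 to 0.105 by edgeR). Of 6 oncofetal genes, Afp was read at 29077, 36356 and 25986 CPM in liver and 66.7, 4.26 and 5.99 CPM in lung and differed by 1186-fold (5361-fold without WT liver 2 and WT lung 1). Lin28b, a fetal RNA-binding protein, was 92.6-fold and Gpc3, a surface proteoglycan, 3.88-fold higher in liver. Igf2bp3 was 1.46-fold higher in liver (flips without scaling factors), Hmga2 1.82-fold higher in lung, and Igf2bp1 was not called (adjusted p = 0.0699, but 0.0230 with the replicate block and 0.0467 without WT liver 1, by edgeR).

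The red cell lineage was the clearest mark of blood formation in the liver. All 15 tested red cell genes were higher in liver, with a median of 6.05 on the log2 scale. Slc4a1, the anion exchanger of the red cell membrane, was read at 1945, 1479 and 1544 CPM in liver and 18.8, 33.1 and 24.8 CPM in lung, without overlap and 64.7-fold apart. The blood group proteins Rhag, Rhd and Ermap, the spectrin Sptb, the membrane protein Epb42 and the nuclear protein Hemgn were 44.6-fold to 243-fold higher. Trim10, Gata1 and Epor, the erythropoietin receptor, were 47.1-fold, 32.3-fold and 12.9-fold higher. Alas2, the first enzyme of haem synthesis in red cells, stood nearer between tissues, at 627, 659 and 483 CPM in liver and 88.3, 265 and 73.5 CPM in lung (4.15-fold, or 7.29-fold without WT lung 2), with WT lung 2 above the other lungs. Tfrc, the transferrin receptor, was 6.05-fold higher. The adult globin genes Hba-a1, Hba-a2, Hbb-bs and Hbb-bt held 1 count in all over the 6 libraries, which cannot be read as absence, since near-identical copies can take or lose each other's reads. Of 9 enzymes of haem synthesis 8 were higher in liver (median 2.5), with Cpox the furthest apart (21-fold), and Alas1, the form of all tissues, was not called at 161 ± 9.46 and 135 ± 3.67 CPM. The direction of Alas1 flips without scaling factors, and it was called higher in liver without WT liver 1 or WT liver 3 (adjusted p = 0.0477 and 0.0256 by edgeR).

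White cell and platelet precursors were also higher in liver. Of 12 granule genes of neutrophils 11 were higher in liver, and the early granule genes stood furthest apart. Mpo, myeloperoxidase, was read at 144, 161 and 189.8 CPM in liver and 0.785, 0.934 and 0.666 CPM in lung, a difference of 208-fold. Elane, Ctsg and Prtn3, the proteases of the same granules, were 224-fold, 175-fold (284-fold without WT liver 2 and WT lung 1) and 83-fold higher. Camp, Ngp and Ltf, of later granules, were 17.6-fold to 31.6-fold higher (Camp 48.4-fold without WT lung 2). The calcium-binding proteins of mature neutrophils were present in both tissues, with S100a8 at 596, 1366 and 946 CPM in liver and 72.2, 115 and 120.3 CPM in lung (9.46-fold) and S100a9 11-fold higher. Lcn2 and Mmp8 differed by 2.46-fold and 1.87-fold (lost without WT liver 2, WT liver 3 or WT lung 1, adjusted p = 0.0584 to 0.108 by edgeR), and Retnlg was not called, at 25.3 ± 15.5 and 18.8 ± 3.87 CPM. Whether the differences of early and late granule genes differ from each other was not tested.

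All 9 platelet lineage genes were higher in liver (median 2.33), from Gp9 at 3.37-fold to Ppbp at 23.2-fold, with Pf4, Itga2b, Gp5, Gp6, Gp1bb and Treml1 between them. Of 9 B lineage genes 8 were higher in liver (median 4.14). The surrogate light chain genes Igll1, Vpreb1 and Vpreb3, which mark B cell precursors, were 44.7-fold, 31.7-fold and 21-fold higher, and Cd79a and Pax5 were 17.6-fold and 15.2-fold higher. Cd79b and Ms4a1, of later B cells, were 5.44-fold and 5.26-fold higher. Ebf1, an early B cell factor that mesenchymal cells also express, was 2.33-fold higher in lung. Rag1 and Rag2, which rearrange receptor genes, were read at 15.8, 10.4 and 12.9 CPM in liver and 4.09, 0.989 and 0.184 CPM in lung and at 2.76, 2.79 and 2.82 CPM in liver and 0.318, 0.110 and 0 CPM in lung, with WT lung 1 above the other lungs, and Lck was 2.84-fold higher in liver. The T cell receptor genes Cd3e, Cd3g and Cd3d were below 1 CPM in both tissues on average and were not called or not tested, like Cd8a, Ptcra and Dntt, except that Cd3g was called higher in liver with the replicate block (adjusted p = 0.0156 by edgeR) and without WT lung 1 (0.0176).

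Mast cell genes formed the exception among blood cells, since all 5 were higher in lung. Cpa3, Cma1, Tpsb2 and Mcpt4, the granule proteases, stood at 8.65, 8.49, 6.18 and 1.04 CPM in lung and at 2.55, 1.24, 0.813 and 0.291 CPM in liver. Kit, the stem cell factor receptor, was read at 31.4, 26.1 and 25.5 CPM in liver and 67.9, 63.4 and 51.1 CPM in lung.

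Genes of cell division were higher in liver without exception among the 20 tested. Mki67, a protein of cycling nuclei, was read at 672, 554 and 572 CPM in liver and 43.2, 31.3 and 34.8 CPM in lung, without overlap and 16.5-fold apart (4.04 ± 0.17 on the log2 scale, adjusted p = 3.84e-08 by edgeR). The ribonucleotide reductase subunit Rrm2 had the largest difference, 21.2-fold, and the replication helicase subunit Mcm4 the smallest, 3.61-fold. Top2a, Ccna2, Mcm6 and Pcna, the other most abundant members, were 4.24-fold to 11.3-fold higher in liver. The median over the list was 2.89. Which cells of the liver divided was not measured here.

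Resident cells of the liver other than hepatocytes were visible as well. Of 6 Kupffer cell genes 5 were higher in liver. Clec4f, a lectin of Kupffer cells, was read at 136, 130.4 and 119 CPM in liver and 0.299, 0.0549 and 0 CPM in lung and Vsig4, a complement receptor, at 26.4, 39.8 and 25.3 CPM in liver and 0.0748, 0 and 0.0230 CPM in lung. Cd5l, Timd4 and the iron exporter Slc40a1 were 108-fold, 80.5-fold and 14.2-fold higher, and C6 was higher in lung. General macrophage genes differed less. All 7 were higher in liver, from Cd68 at 1.94-fold to C1qc at 8.01-fold, with Csf1r, Mrc1, Adgre1, C1qa and C1qb between.

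Stellate cells, which store vitamin A, were marked by 7 of 8 genes higher in liver. Colec10 was read at 124, 143 and 117 CPM in liver and 1.05, 1.54 and 0.757 CPM in lung (116-fold), Reln at 105, 115 and 103 CPM in liver and 5.03, 5.25 and 5.78 CPM in lung (20.1-fold), and Colec11, Hand2, Lrat and Hgf were 7.14-fold to 43.0-fold higher. Ecm1 differed by 1.82-fold, and Des, a filament of muscle and stellate cells, was 6.16-fold higher in lung. For sinusoidal endothelium 8 of 9 genes were higher in liver. Stab2, a scavenger receptor, was read at 124, 116 and 119.5 CPM in liver and 2.6, 1.18 and 2.34 CPM in lung (57.4-fold), and Clec4g, Dnase1l3 and Oit3 were 136-fold, 215-fold and 49.1-fold higher. Stab1, Fcgr2b, Gpr182 and Bmp2 differed by 1.35-fold to 2.85-fold, of which Bmp2 flips without scaling factors. Lyve1, a hyaluronan receptor of sinusoids and lymphatic vessels, was read at 151, 161 and 173 CPM in liver and 652, 699.7 and 599.7 CPM in lung and was 4.02-fold higher in lung.

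Genes used to mark bile ducts were mostly higher in lung, and several of them are also known from lung epithelium. Krt7 was read at 8.49, 12.6 and 8.8 CPM in liver and 539, 415 and 585 CPM in lung (51.6-fold higher in lung), Krt19 at 7.08, 11 and 8.0 CPM in liver and 195, 191 and 219 CPM in lung (23.3-fold) and Epcam at 6.52, 8.74 and 6.88 CPM in liver and 105, 115 and 126 CPM in lung (15.6-fold). Sox9 and Cftr were also higher in lung. Only Spp1, osteopontin, was higher in liver, at 88.4, 121 and 90.1 CPM in liver and 5.87, 14.5 and 11.5 CPM in lung (9.46-fold). Bile duct cells and lung epithelium cannot be told apart by these genes in whole tissue.

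The lung epithelium was led by surfactant genes. All 10 type 2 cell genes were higher in lung (median 8.41), against 39.8% of all genes. Sftpc, made by type 2 cells alone, was read at 16224, 12939.7 and 12759.8 CPM in lung and 0.484, 42.5 and 1.01 CPM in liver. The groups did not overlap and the difference was 956-fold (16962-fold without WT liver 2 and WT lung 1), or 628-fold and 635-fold without WT liver 1 and WT liver 3 (adjusted p = 6.67e-04 by edgeR), with WT liver 2 far above the other livers. Sftpb stood at 2403, 2379 and 2246 CPM in lung and 0.261, 7.67 and 0.290 CPM in liver and the lamellar body protein Lamp3 at 560.4, 598 and 541 CPM in lung and 0.0372, 2.49 and 0.109 CPM in liver, with the same order of livers. Sftpd and Sftpa1, the soluble lectins of surfactant, were 337-fold and 341-fold (539-fold without WT liver 2 and WT lung 1) higher, and Slc34a2 633-fold (1220.4-fold without WT liver 2 and WT lung 1). Genes of surfactant lipid were less restricted. Abca3, the lipid transporter of lamellar bodies, was read at 483, 563 and 443 CPM in lung and 53.9, 56.9 and 49.9 CPM in liver (9.26-fold), and Lpcat1, which makes its main phospholipid, was 8.8-fold higher. Napsa, the protease that matures surfactant proteins, was 34.4-fold higher.

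Type 1 cells, which form the gas exchange surface, were marked by all 10 genes higher in lung (median 7.22). Ager was read at 1200.5, 1149 and 1099 CPM in lung and 3.76, 7.71 and 4.56 CPM in liver (216-fold) and Emp2 at 1715, 1860.4 and 1873 CPM in lung and 10.3, 14.8 and 9.09 CPM in liver (159.6-fold). Aqp5, a water channel of these cells, was at 291, 282 and 292 CPM in lung and 0.0372, 0.943 and 0.217 CPM in liver (759-fold (2167-fold without WT liver 2 and WT lung 1)). Cav1, Hopx, Pdpn and Rtkn2 were 28.9-fold to 58.5-fold higher, and Clic5 and Akap5 139.9-fold (226-fold without WT liver 2 and WT lung 1) and 256-fold. Sec14l3 was the most variable of them in lung, at 374, 725 and 476 CPM, with 0.369 CPM in liver on average.

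Genes of airway cells ranged widely in level. The secretory proteins of club cells Scgb1a1 and Scgb3a2 were at 1721, 2018 and 1717 CPM in lung and 0.186, 6.08 and 0.145 CPM in liver and at 698, 688 and 683 CPM in lung and 0.596, 4.46 and 0.109 CPM in liver, while Cyp2f2, their cytochrome, was also read in liver (37, 40.1 and 21.7 CPM in liver and 187, 353 and 223 CPM in lung) and differed by 7.72-fold. Scgb3a1 was at 4.88 ± 2.78 CPM in lung. All 13 genes of multiciliated cells were higher in lung (median 5.81), but most of them at low levels. Tppp3 was read at 118, 133 and 94.5 CPM in lung and 1.19, 3.17 and 1.88 CPM in liver and Foxj1 at 30.2, 55.8 and 53 CPM in lung and 0.559, 0.514 and 0.217 CPM in liver, while Dynlrb2, Cfap126, Rsph1, Tekt1, Ccno, Dnah5, Dnah9, Ccdc113, Hydin, Deup1 and Mcidas lay between 1.04 and 10.2 CPM. Neuroendocrine genes were scarce. Calca, Syp, Resp18 and Chgb were higher in lung at no more than 6.17 CPM, and Chga was not called. The call of Chgb was lost without any library but WT liver 3 (adjusted p = 0.0540 to 0.110 by edgeR). Of the basal cell genes Krt15 was 125-fold higher in lung, Krt14 and Ngfr were higher in liver (2.67-fold, or 4.28-fold without WT lung 1, and 8.54-fold), and Krt5 had too few counts to be tested.

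Genes of salt and water transport, which move liquid into or out of the lung, were all higher in lung. The 3 subunits of the epithelial sodium channel stood at 456, 437 and 409.7 CPM in lung and 2.94, 4.24 and 3.33 CPM in liver for Scnn1a, at 72.3, 96 and 78.3 CPM in lung and 0.0745, 0.214 and 0.145 CPM in liver for Scnn1b and at 264, 247 and 274 CPM in lung and 0.0372, 0.771 and 0.0362 CPM in liver for Scnn1g. They were 124-fold, 566-fold and 995-fold higher, and of the Scnn1g counts in liver only 2 lay outside WT liver 2. The chloride secretion genes Cftr, Ano1 and Slc12a2 were 128-fold, 30.9-fold and 17.1-fold higher. The sodium pump, which drives the transport in every cell, differed less, with its subunit Atp1b1 at 5.41-fold. The channel regulators Sgk1 and Nedd4l were 2.05-fold and 1.85-fold higher. Aqp1, the water channel of capillaries and red cells, was read at 1513, 1356 and 1432 CPM in lung and 450.2, 457 and 381 CPM in liver (3.34-fold), and Aqp4 was 3.92-fold (6.83-fold without WT liver 2 and WT lung 1) higher.

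The 15 largest fitted differences towards lung included 7 genes with no count in any liver, for which only bounds are given. Shh, the hedgehog ligand of lung epithelium, was read at 29.4, 35.3 and 34.9 CPM in the lungs and was at least 285-fold higher. Rbpjl, a Notch pathway factor best known in the pancreas, Ros1, a receptor kinase, Kcnj13, a potassium channel, Wnt7a, a Wnt ligand, Fam124b and Lrrc26 stood at 10.7 to 18.9 CPM in lung and were between at least 91.9-fold (Lrrc26) and at least 162-fold (Rbpjl) higher. Cckar, Car4, a carbonic anhydrase of lung capillaries, Higd1b, of pericytes, and Mettl21e had 1 or 2 counts in WT liver 2 alone and stood at 21.5 to 41.7 CPM in lung. Cldn18, the claudin of alveolar junctions, was at 721, 898 and 877 CPM in lung and 0.0745, 1.41 and 0 CPM in liver, the amino acid transporter Slc6a14 at 165, 155 and 159 CPM in lung and 0.0745, 0.300 and 0 CPM in liver and Sfta2, a small secreted protein of the epithelium, at 101, 140.0 and 107 CPM in lung and 0, 0.300 and 0 CPM in liver. Sec14l3 completed the 15.

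The lung mesenchyme carried the elastic and collagenous matrix. Of 18 elastic fibre genes 17 were higher in lung (median 2.85). Elastin (Eln), which gives the lung its recoil, was read at 3701, 3559.5 and 2983 CPM in lung and 73.8, 63.8 and 80.6 CPM in liver, without overlap and 46.9-fold apart. Mfap4, a fibre-associated protein, was at 1236, 1369 and 1220.2 CPM in lung and 9.13, 14.6 and 9.09 CPM in liver (117-fold), and Lox, which cross-links elastin, was 19.4-fold higher. Ltbp4, Fbln5 and Fbn1 were 4.57-fold, 12.7-fold and 6.65-fold higher, and Emilin1 was called only without WT liver 3 (adjusted p = 0.0199 by edgeR). Of 21 collagens 18 were higher in lung (median 2.39). The basement membrane chains Col4a3 and Col4a4, of kidney filters and alveoli, stood at 221, 263 and 171 CPM in lung and 1.64, 1.8 and 1.3 CPM in liver (139-fold) and at 177, 181 and 126 CPM in lung and 2.94, 1.89 and 3.04 CPM in liver (60.9-fold). The widespread Col4a1 and Col4a2 were 9.94-fold and 10.9-fold higher. The fibre-forming Col1a1, Col1a2 and Col3a1 were 3.99-fold to 5.23-fold higher, and Col6a1 was 13.9-fold higher.

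The liver had its own matrix genes. Col18a1, the source of endostatin, was read at 1170.0, 821 and 1109 CPM in liver and 131, 156 and 124 CPM in lung and was 7.56-fold higher in liver. Col5a3 was 5.9-fold and Col14a1 1.5-fold higher, the latter with a direction that flips without scaling factors and a call lost without WT lung 2 or WT lung 3 (adjusted p = 0.0598 and 0.0615 by edgeR). Of 11 laminins 10 were higher in lung (median 3.22), with Lamc3 the furthest apart at 68.9-fold (126-fold without WT liver 2 and WT lung 1), and with Lama3, Lama5, Lama4, Lamb3, Lamb1, Lamb2, Lamc1 and Lama2 also among them. Lama1, an early embryonic chain, was 2.73-fold higher in liver at 6.07 ± 0.532 CPM.

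The genes listed for fibroblasts, smooth muscle and pericytes were all higher in lung. All 9 fibroblast genes were higher (median 3.61), from Pdgfra at 3.65-fold to Fgf10 at 228-fold (388-fold without WT liver 2 and WT lung 1), and Npnt, a matrix ligand of integrins, was the most abundant at 1110.5, 1153 and 1205 CPM in lung and 129, 108 and 96.4 CPM in liver. Wnt2, Tgfbi, Fgf18, Hhip and Aspn were among them. All 7 smooth muscle genes (median 3.68) and all 7 pericyte genes (median 4.21) were higher. Acta2 was read at 224, 227 and 256 CPM in lung and 23.3, 26 and 23.4 CPM in liver (9.72-fold), Tagln was 7.8-fold and Cnn1 65.3-fold (286-fold without WT liver 2 and WT lung 1) higher, and Myh11, Actg2, Lmod1 and Synpo2 were 8.75-fold to 17.8-fold higher (Synpo2 30.0-fold without WT liver 2). Pdgfrb, the receptor of pericytes, was 8.96-fold higher and Kcnk3, Lamc3 and Cspg4 66.3-fold to 81.2-fold, with Notch3, Rgs5 and Gucy1b3 between 6.11-fold and 18.5-fold.

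All 13 tested endothelial genes were higher in lung (median 2.53). Pecam1, an adhesion protein of all endothelium, was read at 567, 548 and 500.3 CPM in lung and 59.1, 59.3 and 58.3 CPM in liver (9.13-fold) and Cdh5, the junction cadherin, at 500.1, 511 and 432 CPM in lung and 75.8, 73.3 and 77.9 CPM in liver (6.36-fold). Kdr, the main VEGF receptor, had the smallest difference (2.07-fold) and Cldn5 the largest (12.4-fold). Tie1, Tek, Flt1, Emcn, Esam, Erg, Sox18, Egfl7 and Robo4 lay between. Among lung capillary genes Tmem100 was read at 242, 239 and 225 CPM in lung and 2.42, 2.91 and 2.93 CPM in liver (85.4-fold), Icam2, Ednrb and Gpihbp1 were 12.3-fold, 5.67-fold and 2.38-fold higher, and Hpgd was not called at 78 ± 19.8 and 59.8 ± 25.6 CPM (adjusted p = 0.228, but 0.0105 with the replicate block and 0.00633 without WT lung 2, by edgeR). Haemostasis genes of the vessel wall were split. Thrombomodulin (Thbd), which restrains clotting on endothelium, was read at 515, 505 and 445 CPM in lung and 10.7, 8.7 and 8.44 CPM in liver (52.7-fold) and tissue factor (F3), which starts it, at 154, 113 and 173 CPM in lung and 2.2, 3.9 and 2.28 CPM in liver (53.1-fold). Plat, Procr and Tfpi were 16.5-fold, 6.87-fold and 1.35-fold higher in lung. F8, made by liver endothelium, was read at 21.9, 21.7 and 22.8 CPM in liver and 1.05, 1.98 and 1.22 CPM in lung and was 15.9-fold higher in liver, while Vwf, its carrier, was not called. Vwf was called higher in liver without WT liver 2 or WT lung 2 (adjusted p = 0.0122 and 0.0190 by edgeR). The call of Tfpi was lost without WT liver 1, WT liver 3 or WT lung 2 (0.0701 to 0.0919).

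Growth signals of the developing lung were higher in lung for all 20 genes tested (median 4.14). The FGF ligands Fgf10, Fgf7, Fgf18 and Fgf9 were at 39, 10.4, 17.2 and 1.58 CPM in lung and at 0.173, 0.115, 0.265 and 0.332 CPM in liver. Their receptors Fgfr1, Fgfr2 and Fgfr3 were 6.27-fold to 23.7-fold higher. Among Wnt ligands, Wnt7b of the epithelium was 65.1-fold, Wnt5a 27-fold, Wnt11 24.5-fold and Wnt2 12.2-fold higher. Bmp4 was 19.2-fold higher and Bmp5 2.25-fold, the smallest of the list. Vegfa, which calls endothelium to the epithelium, was read at 298, 333 and 315 CPM in lung and 104, 112 and 86.2 CPM in liver (3.13-fold). Vegfd, Pdgfa, Pdgfb, Tgfb2 and Tgfb3 were 5.95-fold to 21.9-fold higher and the FGF inhibitor Spry2 8.2-fold.

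Markers of tissues next to the organs were examined as a check on dissection. All 10 cardiac muscle genes were higher in lung (median 4.76), with summed levels of 10.5 to 14.8 CPM in the livers and 331 to 518 CPM in the lungs. Actc1, cardiac actin, was read at 122, 174 and 214 CPM in lung and 0.261, 1.41 and 0.290 CPM in liver, Myh6, atrial myosin, at 35.9, 52.7 and 65.4 CPM in lung and 0.223, 0.514 and 0.0362 CPM in liver, and Myh7 at 44.1, 38.2 and 47.8 CPM in lung and 0.261, 0.129 and 0.290 CPM in liver. Tnnt2, Myl4, Myl7 and Tnni3 were at 18.7 to 53.0 CPM in lung, while the ventricular Myl2 and the atrial hormone Nppa were at 0.796 ± 0.158 and 1.69 ± 1.45 CPM, and Mybpc3 at 7.26 ± 2.94 CPM. The source of these reads was not tested, and heart muscle and muscle-like cells of lung veins share these genes. Mesothelial genes were present in both, with Msln 13.9-fold, Upk1b 9.12-fold, Upk3b 4.34-fold and Lrrn4 3.96-fold higher in lung and Wt1 called only without WT liver 2 (adjusted p = 0.0150 by edgeR).

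Markers of skeletal muscle, cartilage, nerve, gut, pancreas, adrenal and squamous epithelium were at low levels. The highest among them was Cela1, a pancreatic elastase, at 18.2 ± 6.84 CPM in liver (5.51-fold higher in liver). Fabp2, a carrier of gut epithelium, was at 7.64, 18.3 and 12.3 CPM in liver and 0.0187, 0.0275 and 0.0459 CPM in lung (379-fold higher in liver, with 3 counts in WT lungs 2 and 3), and Ckm, of muscle, was at 12.6 ± 2.86 CPM in lung (22.6-fold). Mylpf was higher in liver (3.04-fold) and Acta1 in lung (3.22-fold), and 5 further skeletal genes were tested and not called. Krt10, Krt13, Krt4, Ivl and Lor, of squamous epithelium, were higher in lung at no more than 4.71 CPM. Further calls, for Cpa1, Muc2, Cyp11a1 and S100b in lung and Star in liver (flips without scaling factors), were for genes at no more than 3.36 CPM in either tissue. The call of Star was lost without WT liver 2, WT lung 1 or WT lung 2 (adjusted p = 0.0520 to 0.0612 by edgeR). Neither cartilage gene tested was called.

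Families of enzymes with tissue forms were compared per length, as TPM (transcripts per 1000000 transcripts), which gives the make-up within a tissue. Of 31 families with 124 members, 21 were led by a different member in each tissue, and 23 had members called in both directions. Since 37.2% of all genes were called higher in liver and 39.8% higher in lung, a family of several genes can hold both directions at this background. The liver pyruvate kinase Pklr made up 52.1% of the total of its family in liver and 0.333% in lung, where Pkm held the rest. The liver glycogen synthase Gys2 fell from 96.3% in liver to 1.19% in lung, and Gys1 took its place. Of glucose transporters, Slc2a2 made up 50.8% in liver and 0.410% in lung, and Slc2a1 35.8% and 77.0%, although Slc2a1 was itself 2.51-fold higher in liver by CPM.

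Further families of enzymes and carriers were compared in the same way, and not all of them changed their leading form. Mat1a made up 97.7% of methionine adenosyltransferase transcripts in liver and 10.5% in lung, with Mat2a, whose direction between tissues flips without scaling factors, for the rest. Arg1 made up 99.9% and 25.8% of arginase, with Arg2 leading in lung, where it was 16.2-fold higher. Gls2 made up 93.0% and 4.32% of glutaminase. Lactate dehydrogenase kept Ldha as its main form in both tissues, but Ldhb made up 1.29% in liver and 28.3% in lung. Fabp1 made up 84.5% of fatty acid binding protein transcripts in liver, and Fabp5 78.3% in lung, although Fabp5 was 5.27-fold higher in liver by CPM.

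Junction and transport families were also divided. The gap junction protein Gjb1 made up 72.8% of 6 connexins in liver and 0.820% in lung, where Gja4, of arteries, made up 41.4% and Gja1 28.0%. Cldn1 made up 42.3% of 10 claudins in liver, and Cldn5, of endothelium, and Cldn18 made up 31.7% and 28.4% in lung. Aqp9 and Aqp8, the channels of hepatocytes, made up 19.1% and 9.93% of liver aquaporins, and Aqp5 made up 16.8% of those of lung, while Aqp1 led in both. Igfbp1 and Igfbp2, the circulating binding proteins of fetal life, made up 47.0% and 41.0% in liver, and Igfbp7 41.1% in lung. Krt18, whose direction between tissues also flips without scaling factors, and Krt8 led the keratins of liver (66.0% and 31.4%), and in lung Krt8 was followed by Krt18, Krt19 and Krt7 (36%, 24.3%, 22.9% and 15.2%). Eno1 was near 0 in both tissues, and the enolase shares are not read, since it has near-identical copies.

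**Figure D5:**
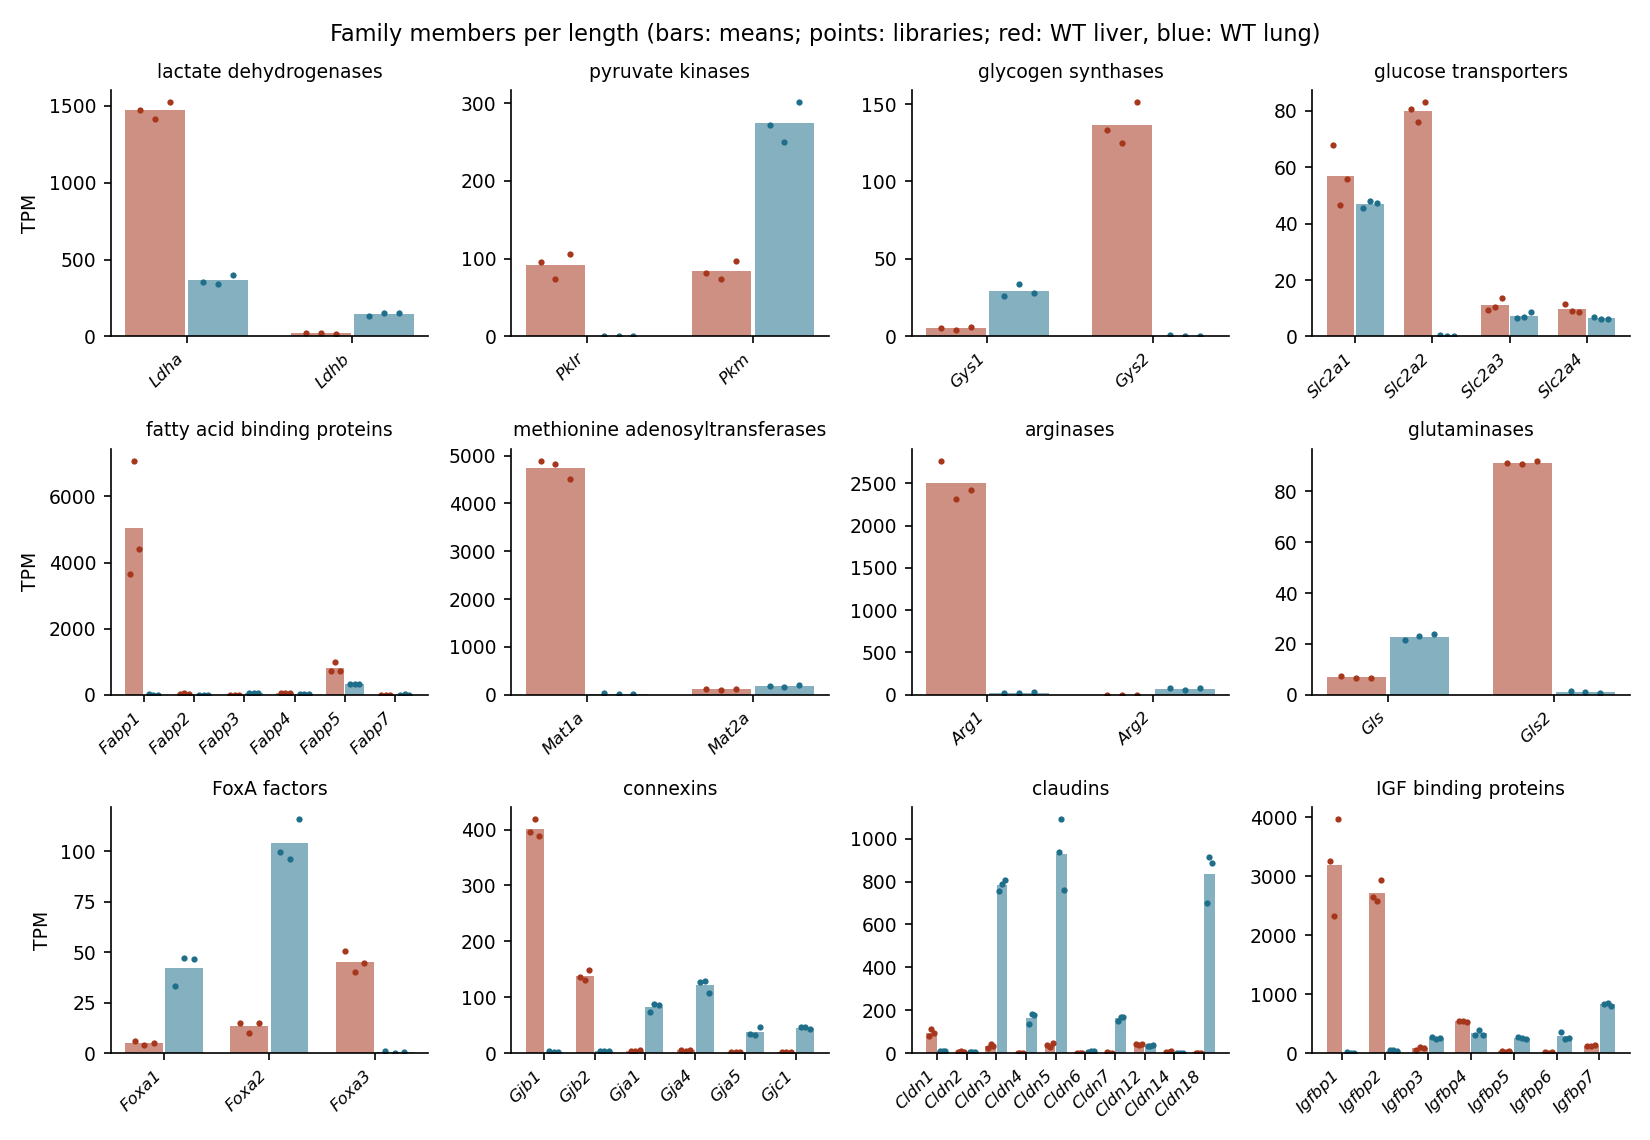
TPM, the level per exon length, of the members of 12 gene families in WT liver (red) and WT lung (blue); bars are means of 3 libraries and points are the libraries. TPM shows the make-up within a tissue; a different member leads in each tissue in families such as the glycogen synthases (Gys2 in liver, Gys1 in lung) and the FoxA factors (Foxa3 in liver, Foxa2 in lung).

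Some of the genes that marked a tissue lay side by side. Among neighbours in the tested gene order (mm10 coordinates), 43 runs of at least 3 genes at least 8-fold higher in liver held 183 of 1095 placed genes (16.7%), and 60 runs in lung held 196 of 1569 (12.5%). The longest was a run of 11 liver genes over 103614786 to 104139545 on chromosome 12. It held the Serpina family genes Serpina10, Serpina6, Serpina1b, Serpina1d, Serpina1a, Serpina1c, Serpina1e, Serpina11, Serpina4-ps1, Serpina5 and Serpina3b. A run of 9 on chromosome 19 held the cytochromes Cyp2c29, Cyp2c67, Cyp2c68, Cyp2c40, Cyp2c69, Cyp2c37, Cyp2c54, Cyp2c50 and Cyp2c70. A run of 8 on chromosome 5 held Ugt2b34, Ugt2b1, Ugt2b35, Ugt2b36, Ugt2b5, Ugt2a3, Sult1b1 and Sult1d1, which conjugate drugs and steroids. Runs of 6 included the cytochromes Cyp2d11, Cyp2d10, Cyp2d9, Cyp2d37-ps, Cyp2d40 and Cyp2d26 on chromosome 15, and Gm30505, Ahsg, Fetub, Hrg, Kng2 and Kng1 on chromosome 16. Most of these genes are copies of each other, so reads can be split among them and neighbours are not independent.

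In lung the longest run was of 7 protocadherins, Pcdhb9 to Pcdhb15, at a median log2 difference of 3.72. A run of 6 on chromosome 15 held the keratins Krt80, Krt7, Krt4 and Krt79 with 6030408B16Rik and 1700011A15Rik. How often such runs arise without any shared control was not tested.

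The genes the study followed were placed in this comparison. Man1a2, the mannosidase absent from the null pups, was read at 92.1, 56.3 and 72.6 CPM in liver and 109, 78.8 and 112 CPM in lung and was not called (log2 difference 0.44 ± 0.19 towards lung, adjusted p = 0.0570 by edgeR). It was called higher in lung with the replicate block (0.00380) and without WT liver 1 or WT lung 2 (0.0140 and 0.0188). Its relatives Man1a and Man2a1 were higher in liver (2.7-fold and 2.17-fold), and Mgat3, which adds a bisecting sugar, was 10.7-fold higher in lung, as were Man1b1, Man1c1, Man2a2, Mgat4a, Mgat4b and Mgat5 by 1.21-fold to 3.24-fold. The call of Man1c1, the smallest of them, was lost without WT liver 2, WT liver 3, WT lung 1 or WT lung 3 (adjusted p = 0.0582 to 0.117 by edgeR). Mgat1 (flips without scaling factors) and Mgat2 were not called. The EGF receptor was read at 129.7, 116 and 107 CPM in liver and 37.3, 30.6 and 32.7 CPM in lung and was 3.5-fold higher in liver, like its ligand Tgfa (3.5-fold) and Egf (1.61-fold, which flips without scaling factors and lost its call without WT lung 3, adjusted p = 0.0598 by edgeR). Erbb2, Erbb3, Hbegf, Btc, Ereg, Nrg1 and Areg were higher in lung, and Areg had the largest difference, at 28.4, 19.4 and 20.7 CPM in lung and 0.0372, 0.0428 and 0 CPM in liver.

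Signal transducers and cilia genes lay mainly on the lung side, where 39.8% of all genes were higher in lung and 37.2% in liver. Of 8 SMAD genes 7 were higher in lung, led by the inhibitory Smad6 and Smad7 (6.73-fold and 4.72-fold), and Smad9 was 1.81-fold higher in liver. The SMAD median was 1.11 towards lung on the log2 scale, and no member was past 8-fold. Of 14 hedgehog genes 12 were higher in lung. Beside Shh these included the receptors and co-receptors Ptch1, Smo, Boc, Cdon and Gas1, the factors Gli1, Gli2 and Gli3, the inhibitor Hhip and the ligand Dhh (38-fold), while Ihh was 8.78-fold higher in liver and Disp1 was called only without WT lung 2 (adjusted p = 0.0401 by edgeR). Of 11 axonemal dynein heavy chains 8 were higher in lung. Dnah11 was at 3.01, 5.38 and 4.41 CPM in lung and 0.335, 0.300 and 0.181 CPM in liver (15.5-fold), Dnah10, Dnah6, Dnah1 and Dnah7b were 3.94-fold to 29.4-fold higher, Dnah7a had no count in liver (at least 5.14-fold), and Dnah17 was 7.44-fold higher in liver. Dnah2 and Dnah8 were not called, and Dnah8 was called higher in lung without WT liver 2 (adjusted p = 0.00684 by edgeR).

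Of 25 genes of intraflagellar transport and the primary cilium, 16 were higher in lung, 3 in liver and 6 were not called. Their median was only 0.56 towards lung on the log2 scale, and no member was past 8-fold. The polycystins Pkd2 and Pkd1 were read at 129, 127 and 122 CPM in lung and 25, 22.7 and 19.2 CPM in liver (5.65-fold) and at 137, 104 and 94.4 CPM in lung and 32.3, 24.3 and 31.3 CPM in liver (3.81-fold), and Ift43 was 6.22-fold higher, the largest of the list. Pkhd1, Ift140 and Bbs7 were higher in liver (4.75-fold, 4.26-fold and 1.36-fold, the last of which flips without scaling factors). The call of Bbs7 was lost without WT liver 2, WT lung 1 or WT lung 3 (adjusted p = 0.0523 to 0.0818 by edgeR). Arl13b, used to stain cilia, was read at 21.5, 20.4 and 23.8 CPM in lung and 9.5, 9.64 and 9.16 CPM in liver (2.32-fold).

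Genes often used as references of equal expression were examined as well. Of 15, 9 were higher in liver, 3 in lung and 3 were not called, so that they were called about as often as all genes (77.0%). Gapdh was read at 1509, 1561 and 1341 CPM in liver and 290.2, 285 and 310.4 CPM in lung (4.98-fold higher in liver) and Pgk1 was 6.1-fold higher. B2m, Hprt and Sdha were 4.17-fold, 2.84-fold and 2.46-fold higher, and Ppia, Gusb and Rpl13a were 1.39-fold to 1.69-fold higher in liver, with directions that flip without scaling factors. Actb and Ywhaz were 1.59-fold and 1.59-fold higher in lung and Polr2a 1.2-fold. Leaving out 1 library ended the call of Actb (WT liver 1, WT liver 2 or WT lung 3, adjusted p = 0.0607 to 0.0911 by edgeR) and of Rpl13a (WT liver 3, WT lung 2 or WT lung 3, 0.0995 to 0.133), which the replicate block also ended (0.0770). That of Polr2a, at the 1.2-fold limit, was lost without any library but WT liver 3. Tbp and Eef1a1 were among those not called, with Tbp at 20.9, 16.8 and 18.4 CPM in liver and 17.2, 15.9 and 18.9 CPM in lung, and the direction of both flips without scaling factors. The median of the list was 0.50 towards liver and, without scaling factors, 0.29 towards lung.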

How the data were processed

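The submitters' notes name STAR 2.5.2a, FastQC and DESeq2 with the mm10 build, and the deposited files hold counts, the number of reads per gene in each library, as the authors made them. The counting program and its use of strand are not given in the sources used here. Poly-A libraries were made with a stranded kit from whole lung and liver of 3 WT pups at P0, both tissues of each pup. Liver and lung carry the same replicate numbers, and same-numbered samples deviated together (correlations of 0.211, 0.190 and 0.143, against -0.170 to -0.0196 for unlike numbers), so the numbers pair the samples. The study's methods do not state whether they were used as a block.

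From the counts, edgeR 4.0.16 in R 4.3.3 was run with its default filter on low counts, TMM factors (0.724 to 0.783 in liver and 1.29 to 1.33 in lung) and the quasi-likelihood test with Benjamini-Hochberg adjustment over 15635 genes, on the 6 WT libraries. In simulated counts 197 of 200 genes changed by 2 on the log2 scale were recovered, with 14 false calls among 15328 genes. Only these 200 genes were changed there, whereas 12039 of 15635 genes were called between the tissues. Recovery and false calls with that many differences were not tested. Annotation matched 98.3% of rows, and 27 names that had been turned into dates were not used. TPM was computed from the counts and the summed exon length of each gene, and serves only comparisons within a tissue. Intervals and floors cover counting error only. No label says more on whether the samples are separate than that they came from 3 pups. Except where the replicate block is named, the p-values come from a fit that leaves the pairing out. They measure the spread of libraries within each tissue and not the spread of the tissue difference within pups.

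The comparison, its 64 gene lists and 31 families were chosen with earlier results of these data known. Named genes were the 10 most abundant of each tissue, the 15 largest differences in each direction with at least 10 CPM, all members of lists and families of up to 13 genes, in longer lists the 6 most abundant, the largest in each direction and those against the majority, every transcription factor and Hox gene, the members of the 8 longest runs, and the study's own genes. Members outside this rule that are named were chosen after their values were seen. Some genes that this rule would name are not reported here, while the counts and medians of lists, families and runs include them. Rows for Sox17, Dnah3, Dnah12 and Ahsp were not analysed here. DESeq2 1.42.0, other scalings, filters, thresholds, the replicate block, a fit of all 12 libraries and fits without each replicate were tried as alternatives. The fit without WT liver 2 and WT lung 1 was added after seeing the data.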

Additional observations from a re-analysis of the deposited data

How the results depend on the processing

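Without scaling factors 2997 genes were higher in liver and 10133 in lung, by the construction of that setting. With the replicate block the counts were 5840 and 6314, and 1108 and 1584 at 8-fold. Among the named genes it changed no call other than those whose blocked values are given above. The folds given above leave this block out. With the block, some of the largest folds rose. Alb moved from 1023-fold to 2436-fold and Afp from 1186-fold to 2736-fold higher in liver. Sftpc moved from 956-fold to 5812-fold and Scgb1a1 from 873-fold to 1948-fold higher in lung. Others moved little, and some of these fell, such as Cyp3a44 (log2 difference, lung minus liver, from -10.79 to -10.66). A minimum of 10 counts in every library left 600 and 648 genes past 8-fold, since genes near 0 in 1 tissue were then not tested. At 4-fold 1806 and 2562 genes were past the limit, and at 16-fold 993 in lung. The matched liver promoters held HNF1 in 2.69%, HNF4 in 1.6%, C/EBP in 13.2% and the TATA box in 13.8% at 4-fold and C/EBP in 19.4% at 16-fold, and the lung promoters the TATA box in 10.03% at 4-fold. Of 64 list medians, that of pancreatic acinar genes turned to -2.41 with at least 10 counts in every library, and that of reference genes to 0.29 without scaling factors.

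Without scaling factors the log2 difference (lung minus liver) turned to 0.53 for Alas1, 0.35 for Bbs7 and Bmp2, 0.68 for Cebpa and Tbp, 0.20 for Col14a1, 0.44 for Eef1a1, 0.10 for Egf and Lars2, 0.75 for Foxp4, 0.29 for Gusb, 0.71 for Mgat1, 0.24 for Igf2bp3, 0.070 for Krt18, 0.39 for Mat2a, 0.019 for Orm1, 0.042 for Ppia, 0.31 for Rpl13a, 0.081 for Star and 0.039 for Ugp2. Leaving out 1 library ended the call of 19 of 596 named genes and made a call for 12 others. DESeq2 called 5978 genes higher in liver and 6377 higher in lung, and a fit of all 12 libraries 4890 and 5232, in which 53 named genes lost their call. At this depth 3 counts stood for 0.0561 to 0.129 CPM on the TMM scale, so folds against lower levels are uncertain.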
